A study of Mus musculus with 2 samples.

Results

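Mature neutrophils of mouse pancreatic tumors were taken as the cells in which at least 3 of 6 genes stood more than 1 scaled unit above their zero level. The 6 genes were Csf3r, Cxcr2, Retnlg, Hdc, G0s2 and Mmp9. Fewer than 2 of the secondary granule genes Camp, Ngp and Ltf were allowed above that limit. By this rule 373 of 9773 cells were mature neutrophils, 190 of 5196 in one library and 183 of 4577 in the other. The tumors had grown for 14 days in the pancreas from MT4, an organoid line of the KPC model of pancreatic adenocarcinoma. One library held cells of pooled tumors from 3 C57/BL6 mice with floxed alleles of Ahr (fl/fl), and the other those of 3 C57/BL6 mice whose floxed Ahr was combined with the LysM-Cre transgene (cKO). Both groups carried the floxed alleles and the same tumor line, and live cells were sorted with DAPI before droplet capture on the 10X Genomics platform. Because LysM-Cre is active in the neutrophil, monocyte and macrophage lineages, neutrophils are themselves among the cells in which Ahr, the gene of the ligand-activated aryl hydrocarbon receptor, is to be deleted.

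Neutrophils are made in the bone marrow. They fill primary granules first, secondary granules at the immature stages and gelatinase granules late, and the mature cells then leave for the blood with the help of the chemokine receptor CXCR2. Mature cells divide no more, live briefly, hold large amounts of the calcium-binding proteins S100A8 and S100A9, and depend on the growth factor G-CSF, whose receptor Csf3r encodes. In tumors they can carry interleukin-1, chemokines and PD-L1, the ligand that Cd274 encodes and that restrains T cells.

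The values were scaled scores of 2000 genes. They had an upper limit of exactly 10, a gene's SD over the cells of both libraries was at most 1 (median 0.88), and differences below are given in these scaled units and are not changes in expression. In the fl/fl library a median over genes of 96.0% of cells shared the gene's lowest value, which was taken as zero. Over genes, the median share of cKO cells at that value was only 55.8%, with 15.2% below it, so the cKO values had been moved relative to the fl/fl values. Shares of cells above zero are therefore given for the fl/fl library alone. The depth in molecules is unknown. In fl/fl mature neutrophils the median number of genes above zero was 83 (5th to 95th percentile 42 to 159.1), fewer than immature neutrophils (100), T cells (114) and monocytes (151). The libraries shared 656 cell barcodes, among them those of 14 fl/fl and 11 cKO mature neutrophils, and 9 barcodes belonged to mature neutrophils in both. Each genotype has 1 library, so differences carry no test and no check by replicates. Intervals on shares are for counting error only.

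The label held against most markers of cell types other than immature neutrophils. Of the 6 marker genes, which chose the cells and are described without a test, Csf3r was above zero in 83.2%, Hdc, the histamine-forming enzyme, in 77.4%, Retnlg in 75.3%, G0s2, an inhibitor of fat breakdown, in 73.7%, the gelatinase gene Mmp9 in 67.4% and Cxcr2 in 66.3% of the 190 fl/fl cells. In the 665 fl/fl T cells, which should lack these genes, the shares lay between 0.15% (Csf3r) and 1.65% (G0s2). The excluding genes were above zero in 11.1% (Camp), 16.3% (Ngp) and 6.84% (Ltf) of mature neutrophils and in 8.42%, 6.92% and 1.5% of T cells. Of the immature neutrophil markers outside the rule, Lcn2 was above zero in 65.3% and Ifitm6 in 30.5% of mature neutrophils. Chil3 was above zero in 8.95% and Cebpe in 4.74%. At least 3 monocyte markers were reached by 3 of the 190 fl/fl cells. The 6 measured basophil and mast cell markers, 6 of 7 NK cell markers, the T cell coreceptor genes Cd8a, Cd8b1 and Cd4, and the primary granule genes Mpo, Ctsg and Ms4a3 were at zero in every fl/fl mature neutrophil. The highest macrophage marker was Apoe at 15.3% (8.27% in T cells) and the highest monocyte marker Ly6c2 at 12.1% (23.2% in T cells). The hemoglobin gene Hbb-bs was above zero in 39.5%, against 53.5% of T cells. Only Il5ra of 5 eosinophil markers and none of the 4 endothelial markers were among the measured genes.

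On the authors' UMAP the cells formed one arm that continued the arm of the immature neutrophils. Their median position was 13 and -2.38 in the fl/fl library and 13.1 and -2.43 in the cKO library. Of the 190 fl/fl cells 184 lay at a UMAP-1 above 10. The 6 others had a median of 226 genes above zero, and 5 of them had a barcode of the other library. In the cKO library 10 cells lay outside, 6 of them with a shared barcode. The UMAP area of the mature neutrophils also held cells that the rule left out. Of its 366 fl/fl cells 184 were mature neutrophils, 82 immature neutrophils and 100 other cells, which had a median of 62.5 genes above zero. Of its 324 cKO cells 173 were mature, 88 immature and 63 other cells. The part of these other cells in the shares of mature neutrophils was not tested. Counting cells with at least 3 markers of another type found 9 possible doublets in each library, which were kept. Immature neutrophils, the adjoining stage, counted as another type, and 4 members of each library reached 3 of their markers.

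**Figure D1:**
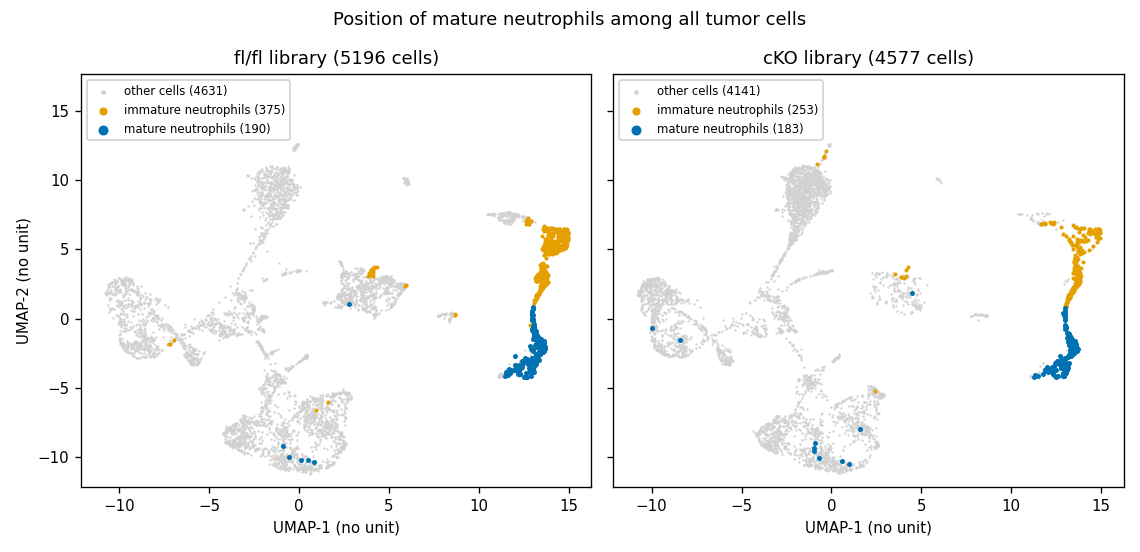
The authors' UMAP-1 (x axis) and UMAP-2 (y axis), without units, with 1 point per cell, the fl/fl library on the left and the cKO library on the right. Blue points are mature neutrophils (190 and 183), orange points immature neutrophils (375 and 253) and grey points other cells, and 184 and 173 of the blue points lie at a UMAP-1 above 10.

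The limit of the rule did not fall in a gap. Among fl/fl cells, 63 had exactly 3 of the 6 markers, 67 had 4, 48 had 5 and 12 had all 6, while 53 cells with exactly 2 stood just outside. The cells just inside had S100a8 above zero in 90.5%, Il1b in 87.3%, Il1r2 in 68.3% and Mxd1 in 69.8%, with a median of 62 genes above zero. Just outside the shares were 81.1%, 69.8%, 67.9% and 56.6%, with a median of 71 genes. In the cKO library 41 cells had 3 markers, 48 had 4, 53 had 5 and 41 had all 6, and the moved cKO values entered these counts. A marker value more than 1 unit above zero was found for G0s2 in 60.5% of fl/fl and 84.7% of cKO mature neutrophils, for Mmp9 in 65.3% and 78.1%, and for Retnlg in 62.1% and 61.7%.

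Ahr, at chr12:35497974-35535038 (GRCm38, minus strand), was above zero in 1 of the 190 fl/fl mature neutrophils (0.526%), against 20.8% of monocytes and 10.4% of T cells. Its mean was -0.25 (SD 0.09 over 190 cells) in the fl/fl and -0.20 (SD 0.46 over 183 cells) in the cKO library. The difference of 0.05 was -0.00028 without the shared barcodes. The sources used here do not give the deleted exons. A tag at the 3' end of the gene that lies outside them checks nothing, and the deletion could not be read from these cells. Lyz2, the lysozyme gene whose locus drives the Cre, was above zero in 45.3% of mature neutrophils, 97.3% of immature neutrophils and 8.57% of T cells, and its cKO minus fl/fl difference was -0.02. Of the 9 genes listed as induced by the receptor, Cyp1b1, Scin and Il4i1 were measured, and none was above zero in 5% of the fl/fl mature neutrophils.

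The shares of mature neutrophils had overlapping intervals in the 2 libraries, while granulocytes at earlier stages made up less of the cKO library. The share of mature neutrophils was 3.66% (exact Clopper-Pearson 95% interval 3.16% to 4.20%) in fl/fl and 4.0% (3.45% to 4.61%) in cKO, and 3.88% and 4.39% without shared barcodes. The order of the libraries turned with the zero level taken from the nearest cKO cells (3.66% and 2.91%) and with immune cells as the denominator (4.25% and 4.15%). Immature neutrophils, with at least 2 of Camp, Ngp and Ltf, made up 7.22% (6.53% to 7.95%) and 5.53% (4.88% to 6.23%). Granulocyte progenitors, with at least 2 of Elane, Prtn3 and Mpo, made up 3.93% (3.41% to 4.49%) and 1.09% (0.81% to 1.44%). Of the cells in these 3 groups, mature neutrophils were 190 of 769 in fl/fl (24.7%, 21.7% to 27.9%) and 183 of 486 in cKO (37.7%, 33.3% to 42.1%). Each genotype is 1 pool, so a difference between pools and one between genotypes cannot be told apart. The moved cKO values entered each of these cKO counts.

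Beside the markers, 12 genes led by Il1b and Slpi had the largest share of fl/fl mature neutrophils above zero minus the share of other fl/fl cells. These values come from the cells the rule picked and are a description without a test. Il1b, the gene of interleukin-1 beta, was above zero in 90.5% of mature neutrophils, 51.1% of monocytes, 5.87% of immature neutrophils and 2.41% of T cells. Il1r2, which encodes a decoy receptor for interleukin-1, was above zero in 66.3%, 15.9%, 16.8% and 3.16% in that order. Cxcl2, a chemokine that acts on CXCR2, was found in 62.6%, 33.0%, 6.93% and 1.05%. Clec4d, a receptor for microbial glycolipids, was found in 62.6%, 31.4%, 3.20% and 0.15%. Mxd1, an antagonist of the growth regulator MYC, was above zero in 75.3% of mature and 41.6% of immature neutrophils.

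S100a9 and S100a8 were above zero in 95.8% and 93.7% of mature neutrophils, in 100% of immature neutrophils and in 30.7% and 27.5% of T cells. Shares near those of T cells, which had a median of 114 genes above zero against 83, are read as background. Slpi, an inhibitor of neutrophil elastase, was above zero in 74.7%, the interferon-induced Ifitm1 in 81.6% and Wfdc17 in 82.1%, against 2.86%, 6.02% and 5.11% of T cells. Wfdc17 was also frequent in monocytes (87.6%). The last genes of the set, Lrg1 (63.2%) and Wfdc21 (63.2%), were as frequent or more frequent in immature neutrophils (62.9% and 91.2%).

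**Figure D2:**
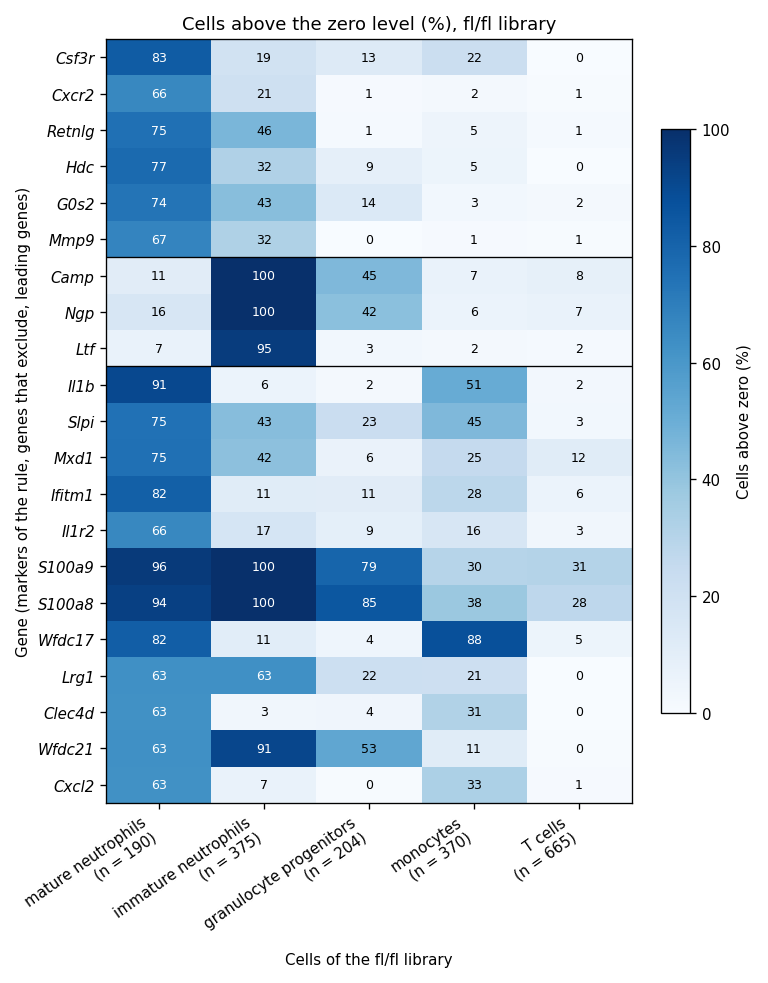
Percent of fl/fl cells above the zero level for the 6 markers, the 3 excluding genes and 12 leading genes (y axis) in 5 groups of cells (x axis, n in brackets), with the percent printed in each field. Il1b, Clec4d, Cxcl2 and Ifitm1 were above zero in 62.6% to 90.5% of mature and 3.20% to 11.5% of immature neutrophils, whereas S100a8 and S100a9 were near 100% in both.

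Mature neutrophils were next set beside immature neutrophils and monocytes. The rule kept Camp, Ngp and Ltf low in the mature and high in the immature group, so low shares of secondary granule genes come with the choice of cells, and mature neutrophils had fewer genes above zero (83 against 100). Of all 2000 genes, 2.55% had a share at least 20 percentage points higher in mature than in immature neutrophils and 6.3% a share that much lower. The higher genes included Ccl6 (65.3% against 8.80%), Dusp1 (67.9% against 10.4%), Acod1, which makes itaconate (44.2% against 2.67%), the lectin receptor gene Clec4e (58.9% against 13.6%) and Egr1 (45.3% against 7.73%). The lower genes included Chil3 (8.95% against 97.9%), Cybb, the catalytic subunit of the phagocyte oxidase (7.37% against 77.1%), Serpinb1a, an inhibitor of granule proteases (8.95% against 70.4%), Cebpe, the transcription factor of secondary granules (4.74% against 61.6%), Anxa1 (39.5% against 92.3%) and Cd177 (17.4% against 63.2%). Lcn2, another secondary granule gene, stayed above zero in 65.3%, against 100% of immature neutrophils. Of the cell cycle list, 2 of 14 measured genes were above zero in 5% of mature neutrophils, against 343 of all 2000 genes. They were Tubb5 (12.6%) and Hmgb2 (52.1%), and the shares in immature neutrophils were 48.8% and 84.0%.

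Compared with monocytes, 2.05% of genes had a share at least 20 points higher and 9.8% a share that much lower. Ms4a6c (6.84% against 96.2%), Ccr2, the receptor that brings monocytes out of the marrow (2.11% against 87.8%), S100a10 (6.32% against 87.6%), Ctsc (10.0% against 86.2%) and the fibronectin gene Fn1 (3.16% against 69.5%) were lower in mature neutrophils. Ms4a6c and Ccr2 are among the markers that chose the monocytes, so their contrast comes with the choice of cells. Compared with all other fl/fl cells together, 2.95% of genes were higher by at least 20 points and 4.2% lower, and the MHC class II genes H2-Aa, H2-Ab1 and H2-Eb1 were above zero in no more than 10.5% of mature neutrophils.

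Within the fl/fl mature neutrophils, genes of granules and the S100 family varied against a set that included Cd274 and glycolysis genes. Principal component 1 of the 224 genes above zero in at least 10% of the cells carried 7.5% of their variance, and component 2 carried 3.83%. The 10 genes with the largest weight at one end were S100a9, S100a8, Retnlg, Pglyrp1, Wfdc21, S100a6, S100a11, Lcn2, Hp and Mmp8. The 10 at the other end were Ier3, Tpi1, Bhlhe40, Cd274, Ldha, Clec4n, Il1rn, Pgam1, Ero1l and Cdkn1a, among which Tpi1, Ldha and Pgam1 encode glycolytic enzymes and Il1rn the interleukin-1 receptor antagonist. Across the 190 cells of this 1 library the correlation was 0.95 between S100a8 and S100a9 and -0.31 between S100a9 and Cd274. Per cell, the median was 8 of the 10 genes of the S100a9 end above zero and 3 of the 10 of the Cd274 end, and the counts had a correlation of -0.44. The score on component 1 had a correlation of -0.19 with the number of genes above zero. The points share 1 library and the depth of each cell, and the genes were picked on these cells, so the correlations only describe them.

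**Figure D3:**
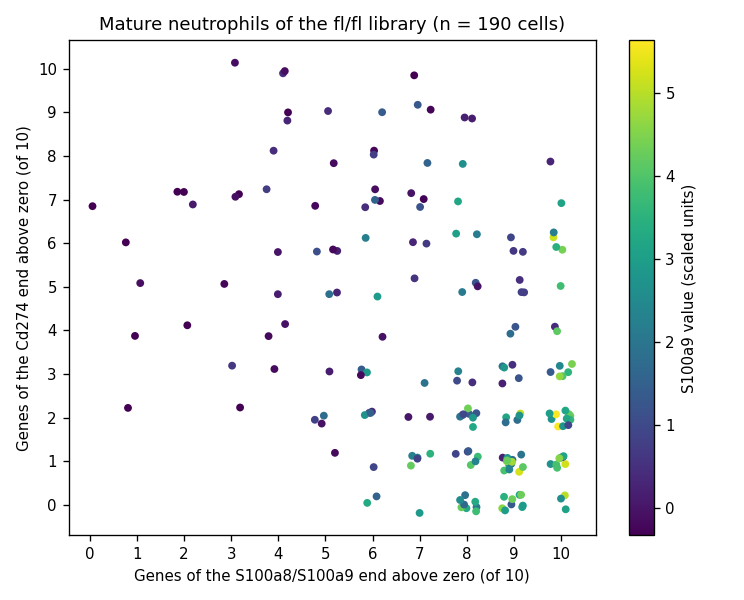
Number of the 10 genes of the S100a8/S100a9 end above zero (x axis) and of the 10 genes of the Cd274 end (y axis) in each of the 190 fl/fl mature neutrophils, with points spread at random by up to 0.25 to keep them apart and colored by the S100a9 value in scaled units. The medians are 8 and 3, and the cells with the most Cd274-end genes have low S100a9 values.

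Upstream sequences are shown for 2 genes of each end, since these genes vary together or against each other in the cells. S100a9 and Ier3 had the largest weight of their ends, while Retnlg and Cd274 did not come next. The sequences are the bases before the RefSeq start (GRCm38.p6), cut where the GENCODE M21 gene begins earlier, 5′ to 3′ on the gene's strand. The letters searched on both strands were GCGTG, the core bound by the aryl hydrocarbon receptor, ACGTG, the core bound by hypoxia-inducible factors, and TTGCNNAA, a C/EBP type motif; GCGTG and ACGTG share their last 4 letters. Capitals mark each match. S100a9 lies at chr3:90695722-90695971 (minus strand), Retnlg, which encodes a resistin-like protein of granulocytes, at chr16:48872358-48872607 (plus), Cd274 at chr19:29367188-29367437 (plus) and Ier3, an early response gene, at chr17:35821463-35821683 (plus), as windows before their starts.
S100a9: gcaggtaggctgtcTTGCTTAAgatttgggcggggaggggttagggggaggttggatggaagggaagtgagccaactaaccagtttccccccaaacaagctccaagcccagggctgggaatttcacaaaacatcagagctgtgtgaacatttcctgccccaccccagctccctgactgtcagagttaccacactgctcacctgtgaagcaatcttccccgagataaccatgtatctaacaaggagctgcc
Retnlg: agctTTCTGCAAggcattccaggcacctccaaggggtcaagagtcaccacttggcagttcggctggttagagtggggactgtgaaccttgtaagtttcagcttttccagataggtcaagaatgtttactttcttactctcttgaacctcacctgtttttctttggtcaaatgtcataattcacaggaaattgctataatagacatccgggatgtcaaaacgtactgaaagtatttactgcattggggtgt
Cd274: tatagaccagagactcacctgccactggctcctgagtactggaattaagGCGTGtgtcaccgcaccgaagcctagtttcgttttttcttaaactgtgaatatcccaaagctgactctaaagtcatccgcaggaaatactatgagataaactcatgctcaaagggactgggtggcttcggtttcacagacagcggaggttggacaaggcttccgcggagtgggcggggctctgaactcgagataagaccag
Ier3: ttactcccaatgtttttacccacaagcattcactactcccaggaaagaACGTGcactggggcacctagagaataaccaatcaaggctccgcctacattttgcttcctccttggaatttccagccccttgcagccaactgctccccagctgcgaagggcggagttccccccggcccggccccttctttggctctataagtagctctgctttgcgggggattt
In S100a9 the C/EBP type match began 236 bases before the start, and in Retnlg 246 bases before it. In Cd274 GCGTG began 201 bases and in Ier3 ACGTG 202 bases before the start. These distances run to the RefSeq start, and the Ier3 sequence shown, cut to 221 bases, ends before it. Each window shown thus held a match, which not all windows of its end did. Of 32851 RefSeq windows of 250 bases, 28.2% held GCGTG, 16.6% ACGTG and 9.56% TTGCNNAA. Of the 10 genes at the S100a9 end 8 had a window, and 4 of the 8 windows held TTGCNNAA, 1 held ACGTG and 0 held GCGTG. Of the 10 genes at the Cd274 end 7 had windows, 11 in all with their alternative starts, and 5 held GCGTG, 3 held ACGTG and 0 held TTGCNNAA. A match of letters is no binding site, and binding was not measured.

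The fl/fl cells were also split by single genes, which were chosen after their values were seen. The 44 cells with Cd274 above zero had a mean S100a9 of 0.72, against 2.16 in the 146 others. Ier3 was above zero in 81.8% of them against 52.1%, Il1rn in 54.5% against 30.1% and Ero1l, an oxidative protein folding gene induced by low oxygen, in 45.5% against 15.1%. Among the markers that chose the cells, and whose values depend on each other through the rule, Retnlg was above zero in 52.3% against 82.2%, Cxcr2 in 68.2% against 65.8% and Mmp9 in 65.9% against 67.8%. The Cd274 cells had more genes above zero, a median of 98 against 78.5, and the part of this in the shares was not tested.

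For the 57 cells with Mmp8, the neutrophil collagenase gene, the mean S100a9 was 2.91 against 1.36 in the other 133 cells, Anxa1 was above zero in 71.9% against 25.6%, and Cd274 in 8.77% against 29.3%. Their median number of genes above zero was 95 against 80. The mean of Il1b was 1.91 against 3.05.

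Further splits followed other genes. The 84 cells with Acod1 had Gadd45b, a stress gene, above zero in 50% against 26.4% of the other 106 cells and Cd274 in 32.1% against 16.0%, with S100a9 means of 1.69 and 1.94 and 84 against 80.5 genes above zero. The 29 cells with Rsad2, an interferon-induced antiviral gene, had Isg15 above zero in 65.5% against 29.8% and Slfn4 in 58.6% against 28.0%, with 100 against 80 genes above zero. The 36 cells with Steap4, a metalloreductase gene, had Il1f9 above zero in 52.8% against 14.3% and the iron exporter gene Slc40a1 in 50% against 16.9%, with 92 against 81 genes above zero.

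Between the libraries, S100 genes stood lower and interferon-induced and chemokine genes higher in cKO mature neutrophils, by fractions of the spread between cells. The question is what myeloid deletion of Ahr does to the neutrophils of these tumors. Genes were counted if 5% or more of the fl/fl mature neutrophils had them above zero. Of these 343 genes, 83 (24.2%) had a mean at least 0.1 higher in cKO and 53 (15.5%) a mean at least 0.1 lower, and the median over all 343 was 0.02. An estimate with the move of the cKO values taken out, by subtracting a low quantile over the nearest cKO cells, was possible for 290 of the genes, those above zero in under 40% of the cells. No source states the move, and the error of the estimate is unknown where the libraries also differ technically. With it 91 (31.4%) were higher and 31 (10.7%) lower, with a median of 0.04. A second form of the estimate gave 55 higher (19%) and 52 lower (17.9%), with a median of 0.00. Of the 136 genes that differed by at least 0.1, 106 had an estimate. Of these 86 kept their sign in the first form and 78 in both, and 57 kept their sign and at least 0.1 in the first form. Across genes, which share cells and are no replicates, r between deposited and estimated differences was 0.43. Without shared barcodes 135 of the 136 kept their sign, and Mmp8 did not. Among cells with at least 4 of the 6 markers, 73 of the 343 genes were higher and 59 lower.

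The lowest difference was that of S100a9 (chr3:90692632-90695721), the gene that also led component 1. Its mean was 1.83 (SD 1.65 over 190 cells) in fl/fl and 1.27 (SD 1.48 over 183 cells) in cKO, a difference of -0.56. In fl/fl the 5th, 50th and 95th percentiles over cells were -0.32, 1.61 and 4.61, and in cKO they were -0.51, 0.90 and 3.96. The 2 distributions of cells overlapped over most of their range. S100a8, whose product pairs with that of S100a9, differed by -0.45, from 1.52 (SD 1.5) to 1.06 (SD 1.39). S100a6 differed by -0.32 and S100a11 by -0.13, while S100a10, at 6.32% of cells, differed by 0.02. So 4 of 5 S100 genes were lower, with a median of -0.32, against 15.5% of all genes counted. Among cells with at least 4 of the 6 markers 3 of 5 were lower, with a median of -0.19, against 59 of all 343 genes. These 4 genes had no estimate, because more than 40% of the cells had them above zero. In immature neutrophils the differences were 0.07 for S100a9 and 0.29 for S100a8, and in monocytes they were 0.0017 and 0.0013; the difference between these cell groups was not tested.

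Upp1, which splits uridine, differed by -0.43 (1.51 to 1.08). Ceacam10, an adhesion family gene, differed by -0.44 (0.91, SD 2.72, to 0.47, SD 2.18), and by -0.42 and -0.52 in both forms of the estimate. Cd274 (chr19:29367455-29388095) differed by -0.35 (0.78, SD 2.33, to 0.44, SD 1.95), and by -0.32 and -0.35 in the estimates, -0.55 among cells with at least 4 markers and -0.41 without shared barcodes. Its 95th percentile over cells was 6.29 in fl/fl and 4.20 in cKO. In monocytes its difference was 0.04 and in immature neutrophils -0.02. Of the other low genes with an estimate, Nabp1 went from -0.23 to 0.56 and 0.33 in the estimates, Asprv1 from -0.23 to 0.086 and -0.0034, Jaml from -0.28 to 0.02 and -0.04, and Cdc42ep2 from -0.23 to -0.07 and -0.18.

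Fgl2, a fibrinogen-like protein of macrophages and lymphocytes, had the highest difference, 0.68 (1.18, SD 2.53, in fl/fl and 1.86, SD 2.94, in cKO), and 0.17 and 0.16 in the estimates. Il1f9, an interleukin-1 family cytokine, differed by 0.55 (1.18 to 1.74) and by 0.95 and 0.77 in the estimates. Csf1, the macrophage growth factor gene, differed by 0.53 and by 0.49 and 0.40, but by 0.03 among cells with at least 4 markers. Igfbp6 (0.67, then 0.22 and 0.13) kept at least 0.1 in both estimates and Steap4 (0.59, then 0.21 and 0.08) in one. Ppt1 (0.57) and Glipr2 (0.53) fell within 0.1 of zero in the estimates, at 0.08 and 0.02 and at 0.08 and 0.04. Slc40a1 turned from 0.54 to -0.18 and -0.28. Egr1 (0.63, and 0.17 with at least 4 markers) and Oasl2 (0.52, and 0.70) had no estimate.

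**Figure D4:**
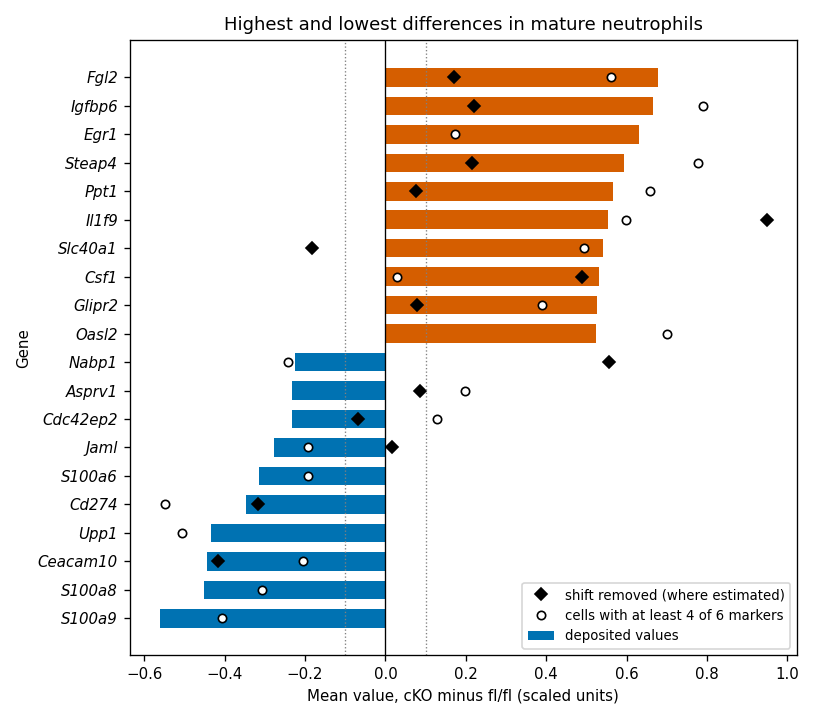
Mean value in cKO minus fl/fl mature neutrophils in scaled units (x axis) for the 10 highest and 10 lowest genes (y axis), with bars for the deposited values, black diamonds for the estimate with the cKO move taken out where there is one, open circles for cells with at least 4 of the 6 markers, and dotted lines at 0.1 and -0.1. Fgl2, Igfbp6, Steap4, Il1f9, Ceacam10 and Cd274 lie beyond the dotted lines in all 3, and Slc40a1, Nabp1, Asprv1 and Jaml have diamonds on the other side of zero.

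Interferon-induced genes were higher in 10 of 15 counted genes and lower in none, with a median of 0.17, against 24.2% higher over all genes. Oasl2, of the antiviral 2-5A family, differed by 0.52 (1.69, SD 2.81, to 2.21, SD 2.93), Ifitm1 by 0.39 (2.66 to 3.05), Gbp2, an interferon-induced GTPase, by 0.29 and Gbp5 by 0.27. Of the 13 with an estimate 9 were higher and 1, Slfn4 (-0.37), lower in its first form, with medians of 0.13 and 0.09 in the 2 forms. Of all 290 genes with an estimate, 31.4% were higher and 10.7% lower in the first form. Among cells with at least 4 markers 6 of 15 were higher and 1 lower, with a median of 0.08. Of all 343 genes, 73 were higher and 59 lower in those cells. Rsad2, the gene of the split above, differed by -0.04 and was among the 5 within 0.1 of zero.

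Of 8 chemokine genes counted, 5 were higher and none lower, with a median of 0.17, against 24.2% higher over all genes. These were Ccl4 (0.29, with 0.19 and 0.14 in the estimates), Cxcl3 (0.26, with 0.04 and -0.07), Cxcl10 (0.21, with 0.15 and 0.12), Ccl3 (0.20, with 0.21 and 0.11) and Cxcl2 (0.15, without an estimate). Cxcl10 was also counted among the higher interferon-induced genes. Ccl3 and Ccl4 attract monocytes and T cells, Cxcl10 attracts T cells, and Cxcl2 and Cxcl3 attract neutrophils. Ccl4 and Ccl3 were above zero in 12.6% and 16.3% of fl/fl mature neutrophils and in 31.7% and 25.4% of T cells. In immature neutrophils the shares were 10.1% and 8.27%, and in granulocyte progenitors 1.96% and 3.92%. The part of background in these shares was not tested. With at least 4 markers 3 of 8 were higher, with a median of 0.06, against 73 of all 343 genes.

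Of 9 counted interleukin-1, TNF and inflammatory genes 2 were higher, Csf1 and Il1b, and 1 was lower, Il1a (-0.21), near the 24.2% and 15.5% of all genes. The median of the list was 0.02. With at least 4 markers 1 was higher and 4 were lower, among them Ptgs2 (-0.38), against 73 and 59 of all 343 genes. In the first form of the estimate 1 of 8 was higher and 3 were lower, against 31.4% and 10.7% of the 290 genes with an estimate. Il1b had a mean of 2.71 (SD 2.59) in fl/fl and 3.04 (SD 2.66) in cKO, a difference of 0.33 without an estimate. Il1rn differed by -0.08, and by -0.31 and -0.28 in the estimates. Tnf (-0.07) and Ptgs2, the inducible cyclooxygenase (-0.04), were within 0.1 of zero.

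Of 12 receptors for chemotaxis, adhesion and microbial products 3 were higher and 2 lower, with a median of 0.05, which is near the 24.2% and 15.5% of all genes. Ccrl2, a receptor that binds chemerin, differed by 0.52 (0.47 and 0.33 in the estimates, 0.12 with at least 4 markers), Mrgpra2b by 0.33 (-0.15 and -0.31) and Clec4d by 0.19, while Ceacam10 (-0.44) and Clec4e (-0.16) were lower. With at least 4 markers 7 were higher and 2 lower, against 73 and 59 of all 343 genes, and Clec4e was then 0.13. The rule's own receptors differed by -0.01 (Csf3r) and -0.11 (Cxcr2), which is a description, since they chose the cells.

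Genes listed as late granule and maturation genes were higher in 7 and lower in 4 of 13, with a median of 0.10, against 24.2% higher and 15.5% lower over all genes. The list includes Anxa1, whose difference is that median, and Cd177, both less frequent in mature than in immature neutrophils here. The 10 of them with an estimate had a median of -0.02 in the deposited values already, and of -0.02 and -0.06 in the estimates. Slpi differed by 0.45 (1.85 to 2.30), Wfdc17 by 0.36 and Mxd1 by 0.22, all 3 without an estimate. Stfa3, a stefin gene above zero in 1.58% of fl/fl cells and so not counted, differed by 0.67, and by 0.05 and -0.09 in the estimates. Mmp8 differed by -0.16, by -0.86 and -0.83 in the estimates and by 0.01 without shared barcodes, whereas in immature neutrophils it differed by 0.99. Of 12 secondary granule genes counted, 1 was higher, Chil1 (0.36, but 0.01 and -0.04 in the estimates), and 2 were lower, Wfdc21 (-0.20) and Ifitm6 (-0.16, with -0.33 in both estimates). Ifitm6 differed by 1.28 in immature neutrophils. Of the list of primary granule genes only 2 were counted, Ctsc and the protease inhibitor gene Serpinb1a, and neither differed by 0.1. Ctsc was more frequent in fl/fl monocytes (86.2%) than in fl/fl granulocyte progenitors (17.6%). Elane, Mpo, Prtn3 and Ctsg missed the 5% filter, so the list gives no result for these genes.

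Of 12 hypoxia and glycolysis genes 5 were lower and 1 higher, with a median of -0.06, against 15.5% lower over all genes. Of the 9 with an estimate 3 were lower and 2 higher in its first form, against 10.7% and 31.4% of the 290 genes with an estimate. The median of the 9 went from -0.083 to -0.018, and to -0.08 in the second form. Ero1l differed by -0.19 (-0.19 and -0.24 in the estimates), Fam162a, a mitochondrial gene induced by low oxygen, by -0.12 (-0.20 and -0.23), Ldha by -0.16 and the glucose transporter gene Slc2a1 by -0.14 (-0.02 and -0.08). Of 14 genes listed as an Acod1 and Hcar2 state of tumor neutrophils, a list put together with earlier results of these data known, 6 were lower and 4 higher, with a median of -0.05. The lower ones were Upp1 (-0.43), Cd274 (-0.35), Acod1 (-0.19), the ferritin gene Fth1 (-0.18), Gadd45b (-0.15, with -0.43 in both estimates) and Xbp1 (-0.11, with 0.036 and -0.0021). Ier3, of the same end of component 1 as Cd274, was higher by 0.24, but lower (-0.23) among cells with at least 4 markers. Of the 10 genes at the S100a9 end of component 1, 7 were lower by at least 0.1. These include S100a9, S100a8, S100a6 and S100a11, already counted with the S100 genes, and Retnlg, which helped choose the cells. Of the 10 at the Cd274 end 4 were lower and 2, Clec4n (0.35) and Ier3, higher by at least 0.1. Over all genes counted, 15.5% were lower and 24.2% higher.

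Of the stress and immediate early genes 3 of 7 were higher, Egr1 (0.63), Fos (0.48) and Dusp1 (0.29), none with an estimate, and the median was 0.08. Over all genes 24.2% were higher. These genes also respond to tissue dissociation, and that part was not tested. Among regulators, Cebpd, a C/EBP family transcription factor, was higher by 0.52 (1.08, SD 2.36, to 1.60, SD 2.77), by 0.53 and 0.54 in the estimates, by 0.39 with at least 4 markers and by 0.64 without shared barcodes. Its difference was 0.10 in immature neutrophils, -0.08 in monocytes and 0.0012 in T cells. Bhlhe40 differed by -0.09. Of 5 survival genes 1 was lower, the cell cycle inhibitor gene Cdkn1a (-0.11, with -0.13 and -0.18). The counts that follow stand beside 24.2% higher and 15.5% lower over all genes. Of 6 iron and heme genes 2 were higher and 1 lower, of 3 lipid mediator genes 2 were higher, Pla2g7 (0.22, with 0.0009 and 0.04) and Anxa1 (0.10, with -0.10 and -0.11), and the 3 counted MHC class II genes and 2 counted cell cycle genes were within 0.1 of zero.

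**Figure D5:**
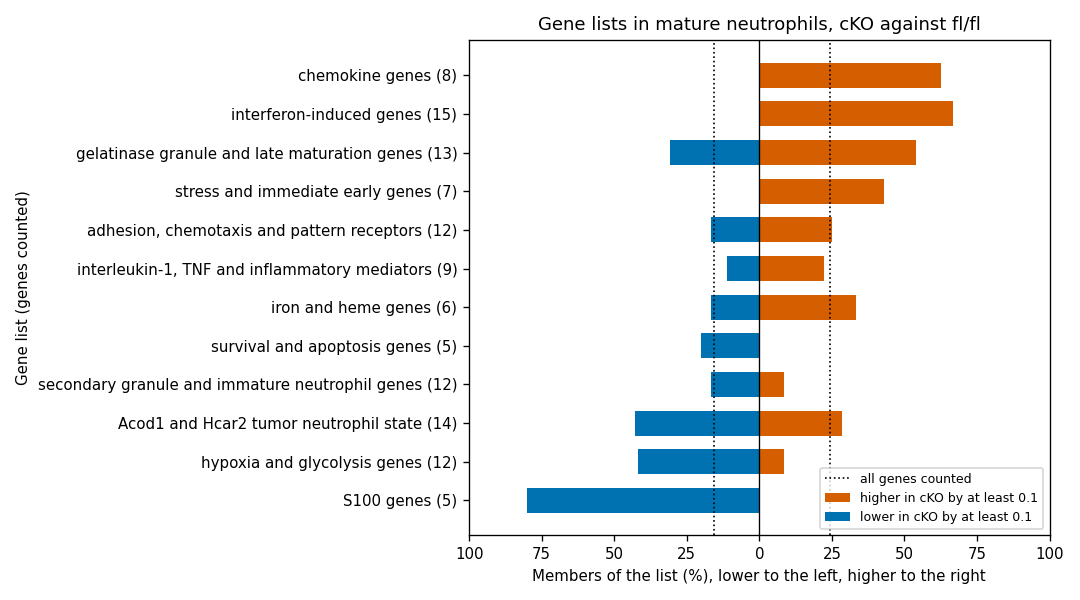
Percent of the counted members of each gene list (y axis, number of counted genes in brackets) that were higher (orange, to the right) or lower (blue, to the left) by at least 0.1 in cKO than in fl/fl mature neutrophils, for lists with at least 5 counted genes. Dotted lines give the 24.2% higher and 15.5% lower of all 343 genes, which the interferon-induced (10 of 15) and S100 lists (4 of 5) pass on opposite sides.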

How the data were processed

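Whole-tumor cells of 2 libraries were compared, 1 per genotype. The authors deposited a scaled score for 2000 genes per cell, together with UMAP coordinates, a second score with 2 per cell. Per the submitters' processing notes, Cell Ranger 3.0.0 and Seurat 3.1.4 and the builds mm10 and GRCm38 were used, without their roles. Filters on cells and treatment of doublets are not given in the sources used here. Library totals, and so depth, are unknown. Precision is limited by 1 pooled library per genotype and by the moved cKO values, beside the number of cells.

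The end of a cell's name gave its library. The zero level of a gene was its minimum over fl/fl cells. Groups other than mature neutrophils were set by limits of 1 above zero for at least 2 (immature neutrophils, progenitors) or 3 markers (monocytes, T cells). The members and the 18 gene lists were chosen with earlier results of these data known. Genes counted if 5% or more of the fl/fl mature neutrophils had them above zero, and a difference of 0.1 made them higher or lower. The estimate subtracted from a cKO value the 0.3 quantile over the 30 nearest cKO cells in 30 principal components. The second form used 50 cells and a quantile of 0.5 times the share of cells at zero. No test was run. The code was tried on fl/fl cells with known changes and a smooth shift added to a random part of them. There the nearest cells were found in the values before the shift, whereas the real cKO values were already moved.

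Genes were named by rule: Ahr and Lyz2, the 9 genes of the rule for cells, 12 leading genes, the 10 highest and 10 lowest differences, up to 4 members of each list and 10 genes at each end of component 1. Genes named for their shares against immature neutrophils and monocytes, further list members and the genes of the splits were chosen after their values were seen. Promoter windows are from RefSeq (GRCm38.p6) and gene positions from GENCODE M21 (GRCm38). Python 3.11.15, numpy 2.4.6, pandas 2.3.3, scipy 1.17.1 and matplotlib 3.10.9 were used.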

Additional observations from a re-analysis of the deposited data

How the results depend on the processing

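With 1 library per genotype no alternative gives a test. The share of mature neutrophils in fl/fl was 3.12% with a limit of 1.5, 4.68% with at least 2 and 2.44% with at least 4 markers, and 4.25% of immune cells. In cKO it was 4.92% with at least 2 and 3.1% with at least 4 markers, 4.96% without the limit on Camp, Ngp and Ltf, and 2.91% with the zero level taken from the nearest cKO cells, which does not suit genes above zero in most cells. Higher genes numbered 55 in the second form of the estimate, 127 without a filter on genes and 37 from a difference of 0.25. Lower genes numbered 31 in the first form, 87 without a filter and 7 from 0.25. List medians in the first and second form were -0.016 and -0.062 for late granule genes, -0.099 and -0.11 for lipid mediators and -0.058 and -0.078 for stress genes, and in the second form -0.15 for inflammatory mediators and 0.045 for chemokines. With at least 4 markers the medians were -0.19 for S100 genes and 0.057 for chemokines. With at least 4 markers Asprv1 (0.20), Cdc42ep2 (0.13), Cxcl2 (-0.045), Gbp5 (-0.057), Ier3 (-0.23) and Retnlg (0.052) turned in sign. In the first form Anxa1 (-0.099), Asprv1 (0.086), Jaml (0.016), Mrgpra2b (-0.15), Nabp1 (0.56) and Slc40a1 (-0.18) did, and in the second Anxa1 (-0.11), Chil1 (-0.038), Cxcl3 (-0.067), Mrgpra2b (-0.31), Nabp1 (0.33) and Slc40a1 (-0.28). Without shared barcodes Mmp8 (0.00605) did. The cause was not tested. Leaving out cells with a shared barcode or at a UMAP-1 of 10 or below, and the lists with at least 4 markers, were chosen after seeing the data. Weighting cKO cells to the fl/fl number of genes above zero was not run, because every cKO cell fell in the highest of 5 bins. No paired analysis was possible because the libraries share fewer than 2 replicate numbers and no test was made.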
